A study of Bos taurus with 40 samples.

Results

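*DBP* (ENSBTAG00000006754), the gene of a circadian output transcription factor, was followed through every sample in which it was listed. It was chosen by its identifier and is 1 gene of the 8531 listed in any of the 4 deposited tables. *DBP* was listed in 30 of the 40 samples, namely in bull liver, heifer liver and bull muscle, and its level in heifer muscle was not analysed here. The animals were purebred Simmental bulls and heifers, housed at approximately 15 months of age and offered concentrate ad libitum and a little grass silage in a single daily feed at 0800 h. Animals at the extremes of residual feed intake (RFI) were taken within each sex, and each sex and tissue holds 5 samples of high and 5 of low RFI, whose tags match only in part between the tissues. RFI is the difference between the feed an animal eats and the feed predicted from its weight, growth and back fat, so that high RFI marks an inefficient animal and low RFI an efficient one. No group received a drug or carried an allele set by the study, and high and low RFI animals came from parents selected for the same trait. The labels give each animal a tag, so samples within a group are separate animals.

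*DBP* encodes D-box binding protein, a member of the PAR bZIP family of transcription factors. In mammals its transcription is switched on by the CLOCK and BMAL1 proteins at E-box elements of the gene and is shut down again as the PER and CRY repressors accumulate, so that its transcript swings widely over the day, with a large amplitude in liver. The protein, together with its relatives TEF and HLF, binds D-box elements in the promoters of genes of drug, lipid and amino acid metabolism, and competes there with the repressor NFIL3. Feeding time can shift the phase of the rhythm in liver, and the hour at which each biopsy was taken is not given in the sources used here.

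Levels are in CPM, a unit that relates the reads of a gene to all reads counted in its sample and takes no account of gene length. Every deposited value was a whole multiple of the worth of 1 read to within 0.05 of a read, from which a depth of 2368340 to 60929308 reads per sample was recovered, with a median of 19749118.5 reads. *DBP* itself rested on 58 to 2449 reads, which gives a counting error of 2.02 to 13.1%. A separate check, which took the smallest value of a file as 1 read, did not find whole reads in most files. The lowest listed genes held many reads, so this check could not recover the worth of 1 read. No count test was run, and the reads served for depth, counting error and precision weights. The intervals given for single samples are exact 95% Poisson intervals and cover counting error only. The tissue of each sample was checked with 28 muscle and 32 liver genes whose levels differed more than 32-fold between the tissues. Of the 30 samples, 23 held at most 2.26% of the other tissue's profile. Bull muscle samples M12, M6 and 2712 held 99.7% of the liver profile each and M74 held 48.8%. Heifer liver samples 2728, L58 and L16 held 48.9, 98.3 and 74.4% of the muscle profile. These 7 samples held another tissue's profile in full or in part and were set apart, and values that include them are given as well. In bulk tissue, fewer cells of a type and less RNA per cell cannot be told apart.

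In bull liver, *DBP* was lower on average in low RFI than in high RFI animals, but the groups overlapped. The high RFI bulls had 29.9 CPM in animal 2701, 90.9 in 2703, 34.1 in 2641, 48.3 in 64 and 63.4 in 68. The low RFI bulls had 31.8 CPM in animal 2659, 17.7 in 2669, 23.8 in 2712, 30.8 in 2713 and 22.9 in 2723. Animals 2703 and 68 thus stood highest and 2669 lowest, while the high RFI bull 2701 lay below the low RFI bulls 2659 and 2713. The value of 2713, the shallowest sample, came from 73 reads and has a counting interval of 24.2 to 38.8 CPM. High RFI bulls averaged 53.3 ± 24.8 CPM (SD, n = 5), and their low RFI counterparts averaged 25.4 ± 5.88 CPM (SD, n = 5). Groups that did not overlap were found for 74 of 7363 genes (1.01%).

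On the scale of log2(CPM + 1), after scaling between samples, this difference was −0.91 ± 0.26 (SE; 95% interval −1.47 to −0.35), low against high RFI. It ranked 39 of 7363 genes by p, with a p of 0.00388 and an adjusted p of 0.643 in limma over all genes. No gene passed an adjusted p < 0.1 in bull liver (0% of those tested), whereas 555 genes (7.54%) had an unadjusted p < 0.05. An exact two-sided permutation test over the 10 bulls gave p = 0.0159 for *DBP* alone, where the smallest possible p is 0.00794. The study had itself listed *DBP* as differing in these bulls at an adjusted p < 0.1, so this test is not independent evidence of a difference. It had used edgeR on read counts over a larger set of genes. Its adjusted p and the one from limma here are therefore not like measures. The high RFI bulls 64 and 68 carry a shorter tag than the others, and with 4-digit tags only the log2 difference was −0.83, with an adjusted p of 0.998 in limma.

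In heifer liver, *DBP* did not follow RFI in the direction seen in bulls. Among samples with a liver profile, the high RFI heifers had 68.6 CPM in animal 2670, 53.5 in 2704, 62.7 in 2705 and 55.7 in L60. The low RFI heifers had 63.0 CPM in animal L59, 112 in 2632 and 49.2 in 2660. The low RFI heifers included both the highest and the lowest of these 7 values, so the groups overlapped. High RFI heifers averaged 60.1 ± 6.89 CPM (SD, n = 4), and their low RFI counterparts averaged 74.9 ± 33.3 CPM (SD, n = 3). Groups that did not overlap were found for 278 genes (3.84%).

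The log2 difference between low and high RFI heifers was 0.31 ± 0.28 (SE; 95% interval −0.32 to 0.94), with an adjusted p of 0.9996 in limma and an exact permutation p of 0.543, where 0.0286 is the smallest p possible. No gene passed an adjusted p < 0.1 in heifer liver (0%), and 181 of 7231 genes (2.5%) had an unadjusted p < 0.05. Its direction rested on 1 animal, since without heifer 2632 the log2 difference was −0.06. The samples set apart had 24.8 CPM in the high RFI heifer 2728, 12.1 in the low RFI heifer L58 and 22.2 in the low RFI heifer L16, all below every heifer sample with a liver profile. With all 10 samples as labelled, the log2 difference was −0.05.

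In bull muscle, the level of *DBP* was low and was not separated by RFI. The high RFI bulls had 5.53 CPM in animal 2641, 9.69 in 2666, 11.1 in M57 and 10.97 in M65. The low RFI bulls had 11.5 CPM in animal 2723 and 5.50 in M67. The 2 low RFI values lay on either side of all 4 high RFI values. The means were 9.32 ± 2.60 CPM (SD, n = 4) and 8.50 ± 4.26 CPM (SD, n = 2), a log2 difference of −0.11 ± 0.33 (SE; 95% interval −0.86 to 0.63), with an adjusted p of 0.969 in limma and an exact permutation p of 0.8, in a design that cannot go below 0.0667. Groups that did not overlap were found for 774 genes (12.9%). No gene of 6002 passed an adjusted p < 0.1 (0%), and 123 (2.05%) had an unadjusted p < 0.05. Without the low RFI bull M67 the log2 difference was 0.27. The 4 samples set apart had 27.3 CPM in the high RFI bull M12 and 32.2, 28.8 and 17.95 CPM in the low RFI bulls M6, 2712 and M74, and with them the log2 difference was 0.53.

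**Figure D1:**
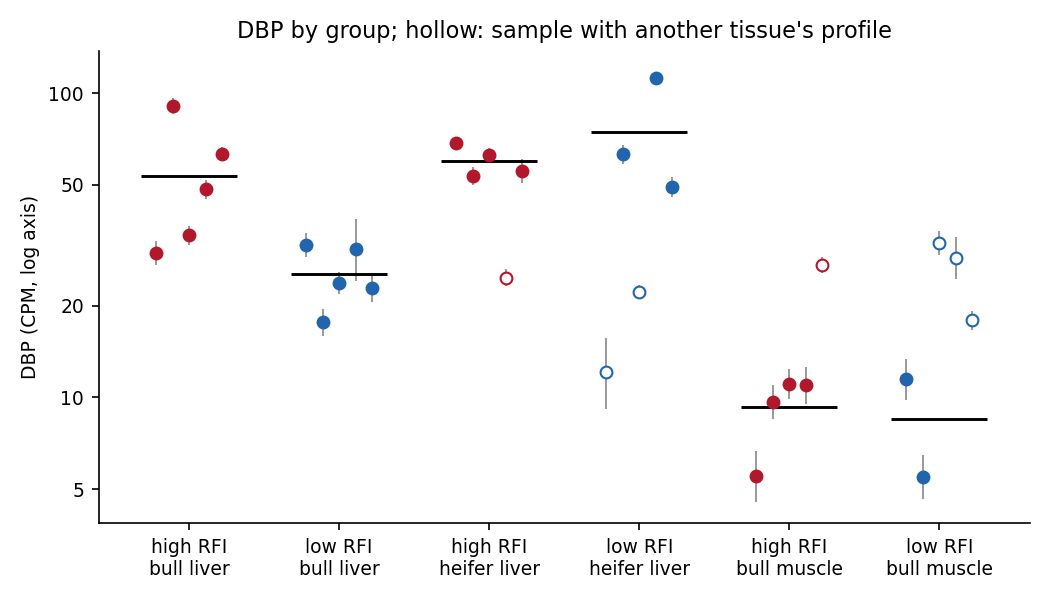
Level of *DBP* (CPM, log axis) in each of the 30 samples by group, with red points for high and blue points for low RFI, grey bars for the 95% Poisson interval of the counting error and black lines for the mean of the filled points. Hollow points are the 7 samples that held another tissue's profile in full or in part. They lie below the filled points of heifer liver (12.1 to 24.8 CPM) and above those of bull muscle (17.95 to 32.2 CPM).

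The 6 groups could be put in order by their means over the samples with the profile of their label. Low RFI heifer liver stood at 74.9 CPM, high RFI heifer liver at 60.1 CPM, high RFI bull liver at 53.3 CPM and low RFI bull liver at 25.4 CPM, followed by high RFI and low RFI bull muscle at 9.32 and 8.50 CPM. The first 3 groups overlapped with their neighbours in this order, and the exact permutation p between high RFI bulls and high RFI heifers was 0.365. All 5 low RFI bull livers lay above all 4 high RFI bull muscle samples. Such a gap was common, since 50.5% of 5035 genes did not overlap between all bull livers and all clean bull muscle samples.

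*DBP* was higher in liver than in muscle. The 10 bull livers ranged from 17.7 to 90.9 CPM, with a median of 31.3, a mean of 39.4 and an SD of 22.5 CPM. The 6 clean bull muscle samples ranged from 5.50 to 11.5 CPM, with a median of 10.3, a mean of 9.05 and an SD of 2.80 CPM. The ranges did not overlap and the means differed 4.35-fold, but such a gap was common, since 2542 of the 5035 genes in both tables (50.5%) did not overlap between these samples. Bulls 2641 and 2723 gave clean samples of both tissues. In bull 2641, *DBP* stood at 34.1 CPM in liver and 5.53 CPM in muscle, and in bull 2723 at 22.9 CPM in liver and 11.5 CPM in muscle. The sample of bull 2712 that is labelled muscle and holds the liver profile had 28.8 CPM (counting interval 24.4 to 33.6), beside 23.8 CPM (21.9 to 25.9) in the sample labelled liver with the same tag. All 3 bull samples labelled muscle that held 99.7% of the liver profile lay within the range of the bull livers.

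**Figure D2:**
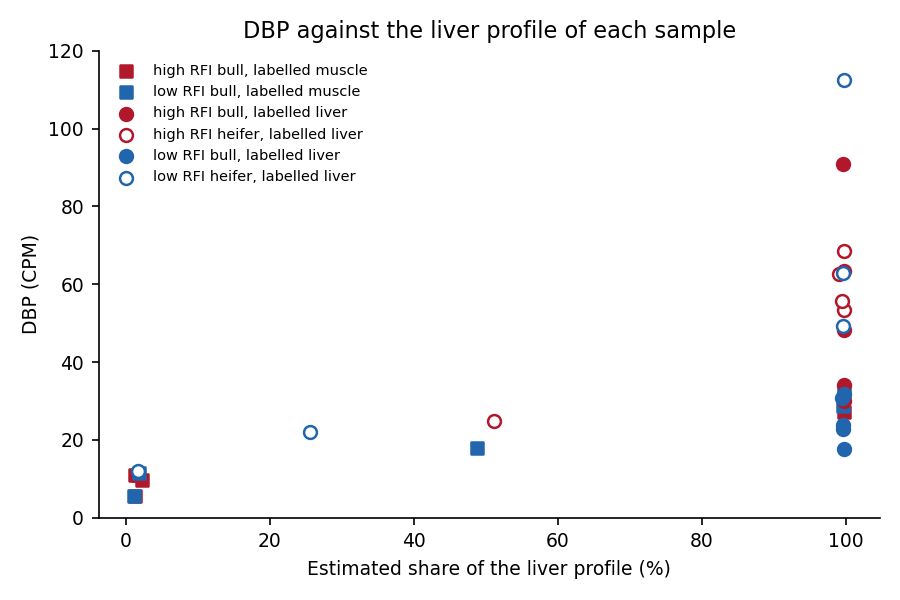
Level of *DBP* (CPM) against the estimated share of the liver profile (%) in each of the 30 samples, with circles for samples labelled liver, squares for samples labelled muscle, filled symbols for bulls, hollow symbols for heifers, red for high and blue for low RFI. Samples near 0% lie between 5.50 and 12.1 CPM, the 3 samples of mixed profile between 17.95 and 24.8 CPM, and samples near 100% spread from 17.7 to 112 CPM.

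Bulls and heifers were then compared in the 7045 genes listed in both liver tables, over the 17 liver samples with a liver profile. *DBP* was lower in bulls than in heifers by 0.91 ± 0.21 on the log2 scale as the mean over RFI groups (difference bulls minus heifers −0.91, SE 0.210, 95% interval −1.35 to −0.46), a ratio of 0.534. Its adjusted p was 0.0299 in limma, and it ranked 103 by p. The mean includes the low RFI bulls, whose low level of *DBP* was known when the gene was chosen. This p is therefore not independent evidence. A total of 316 genes (4.49%) passed an adjusted p < 0.1, of which 152 (2.16% of those tested) were lower in bulls. Sex and any batch between the 2 tables cannot be told apart. With all 20 livers as labelled, the log2 difference was −0.54 and the adjusted p 0.298.

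The gap was also taken within each RFI group. In low RFI animals, the 5 bulls (17.7 to 31.8 CPM) all lay below the 3 heifers (49.2 to 112 CPM), a log2 difference of −1.52 with an exact permutation p of 0.0179, the smallest that 56 assignments allow. At the same comparison 394 of 7045 genes (5.59%) did not overlap. The low level of *DBP* in low RFI bulls was known when the gene was chosen, so this p is not independent evidence. In high RFI animals the log2 difference was −0.30, and bulls 2703 and 68 lay among or above the 4 heifers.

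The change with RFI was compared directly between the sexes. The low against high RFI difference in bulls minus that in heifers was −1.22 ± 0.42 on the log2 scale (SE; 95% interval −2.10 to −0.33). Permuting the RFI labels within each sex, over 8820 assignments, gave a permutation p of 0.0158 for *DBP* alone. Over all genes it did not pass, with an adjusted p of 0.959 in limma, a p of 0.00971 and a rank of 54 of 7045. No gene passed an adjusted p < 0.1 (0%), and 256 (3.63%) had an unadjusted p < 0.05. The difference in bulls was known when *DBP* was chosen. With all 20 livers as labelled, the difference was −0.88 ± 0.52 (SE), with a p of 0.109 and an adjusted p of 0.660 in limma. Leaving out 1 animal at a time gave −1.49 to −0.84 among the 17.

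**Figure D3:**
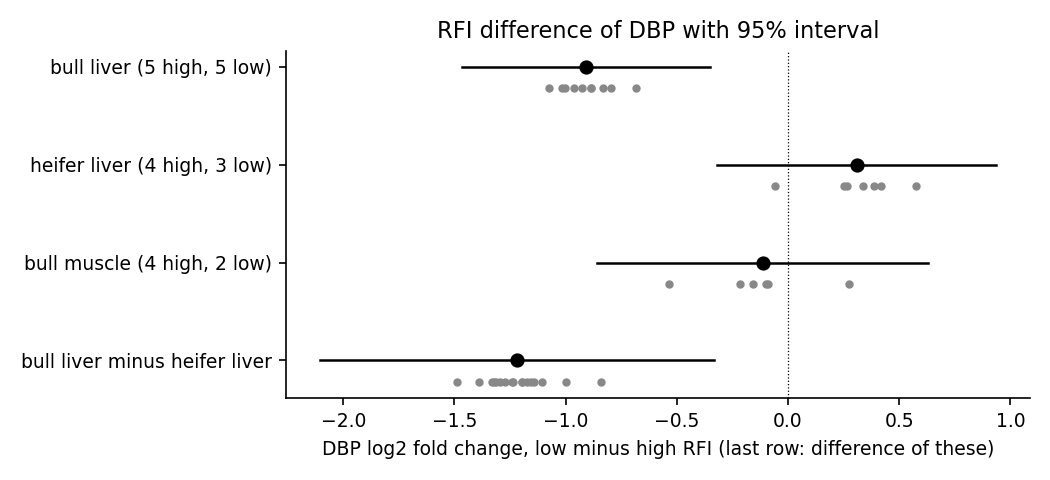
Log2 fold change of *DBP*, low minus high RFI, in bull liver, heifer liver and bull muscle, and the bull liver change minus the heifer liver change, each as a black point with its 95% interval from limma. The grey points leave out 1 animal each. They stay below 0 for bull liver and for the difference between the sexes, and 1 of them crosses 0 in heifer liver (−0.06) and 1 in bull muscle (0.27).

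Beyond its mean level, *DBP* varied widely between animals of the same group in bull liver, and in heifer liver through 1 animal. After subtraction of the group means, the SD of its log2 values was 0.493 in bull liver, against 0.210 for the median gene, and was above the SD of 95.6% of all genes and of 96.2% of the 3926 genes expressed within 2-fold of it. In heifer liver the SD was 0.449, against 0.244 for the median gene, and above that of 89.3% of all genes. This spread rested on heifer 2632. Without that animal it was 0.203, below the 0.244 of the median gene with that animal included. Over all 10 heifers as labelled it was 0.738. In clean bull muscle the SD was 0.331, near that of the median gene (0.306). In bull liver it was 0.369 to 0.525 when 1 animal at a time was left out.

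The deviations were largest in high RFI bull 2703, 0.89 above its group mean on the log2 scale, and in low RFI heifer 2632, 0.75 above. High RFI bull 2701 lay 0.67 below and low RFI heifer 2660 lay 0.54 below. Across the 17 livers, the deviation of *DBP* had a Pearson's r of −0.105 and a Spearman's rho of 0.0294 with log2 depth, with a permutation p of 0.624 for r, and r was −0.0717 without the 2 samples of most extreme depth. With the share of the muscle profile, r was 0.109, given as a description.

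The next question was which genes deviated together with *DBP* from animal to animal. Over the 17 clean livers, 7044 other genes were compared on log2 values with the mean of each sex and RFI group removed. Of these genes 3522 had a positive and 3522 a negative r, with a median absolute r of 0.272, and 15.0% had an absolute r over 0.5. In limma with *DBP* as a covariate, 5 genes passed an adjusted p < 0.1 (0.071%), all of them negative, and 848 genes (12%) had an unadjusted p < 0.05. Over all 20 livers as labelled, 3 of them with a muscle profile in full or part, 4054 genes passed. The leading genes given next were chosen by their r, so their r is a description. The files give identifiers only, and a name could be attached to none of these 5.

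The gene most opposed to *DBP* was ENSBTAG00000021538, with an r of −0.926, a rho of −0.900 and an adjusted p of 0.0292 in limma. Its r was −0.919 in bulls alone, −0.926 in heifers alone, and −0.855 without the 2 samples whose *DBP* lay farthest from the median, bull 2703 and heifer 2632. It no longer passed in bulls alone (adjusted p 0.238 in limma), without these 2 animals (0.316), without bull 2701 (0.157) or without heifer 2632 (0.144). It ran from 15.0 to 30.1 CPM in high RFI bulls and from 25.1 to 31.9 CPM in low RFI bulls. In heifers it ran from 13.6 to 19.2 CPM at high RFI and from 8.72 to 17.6 CPM at low RFI. Its lowest values in high RFI bulls and in low RFI heifers were those of bull 2703 (15.0 CPM) and heifer 2632 (8.72 CPM), in which *DBP* was highest.

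The second most opposed gene, ENSBTAG00000005984, had an r of −0.890, a rho of −0.929 and an adjusted p of 0.0513 in limma. Its r was −0.938 in bulls, −0.960 in heifers and −0.789 without the same 2 animals. It no longer passed when scaled by library size only (r −0.788, adjusted p 0.229 in limma), in bulls alone (0.516) or without the same 2 animals (0.423), nor in limma without bull 2701, 2641 or 2659 or heifer 2704, 2632 or 2660 (adjusted p 0.102 to 0.340). Over all 20 livers as labelled its r was 0.208. The other 3 genes that passed had an r between −0.877 and −0.841. Neither of the 2 opposed genes named here passed the RFI comparison, with adjusted p of 0.657 and 0.798 in bull liver and 0.9996 in heifer liver, all in limma.

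The genes that rose and fell with *DBP* did not pass the adjustment. The most alike, ENSBTAG00000021795, had an r of 0.845, a rho of 0.858 and an adjusted p of 0.165 in limma. Its r was 0.870 in bulls, 0.801 in heifers and 0.895 without bull 2703 and heifer 2632. ENSBTAG00000009047 followed with an r of 0.837, a rho of 0.814 and an adjusted p of 0.199 in limma. Its r was 0.838 in bulls, 0.835 in heifers and 0.692 without the same 2 animals, but −0.124 among heifers without 2632. The 10 genes most like *DBP* with the same sign in both sexes had r of 0.769 to 0.845, and the 10 most opposed had r of −0.926 to −0.817. Among heifers without 2632, r ran from −0.326 to 0.782 in the first set and from −0.961 to 0.253 in the second. The shared sign thus did not hold for every gene of either set without that animal.

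These leading genes were chosen for a shared sign, whereas across all genes the pattern of bulls did not carry over to heifers. Of all genes, 50% had the same sign of r in both sexes, and over genes, which are not independent, r in bulls and r in heifers were themselves correlated at 0.0171. Of the 664 genes with an r over 0.5 in bulls, 336 were above 0 in heifers, with a median r of 0.0218 there. Of the 691 genes with an r under −0.5 in bulls, 386 were below 0 in heifers, with a median r of −0.116. The values for heifers come from 7 animals, of which 2632 carries much of the spread of *DBP*.

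**Figure D4:**
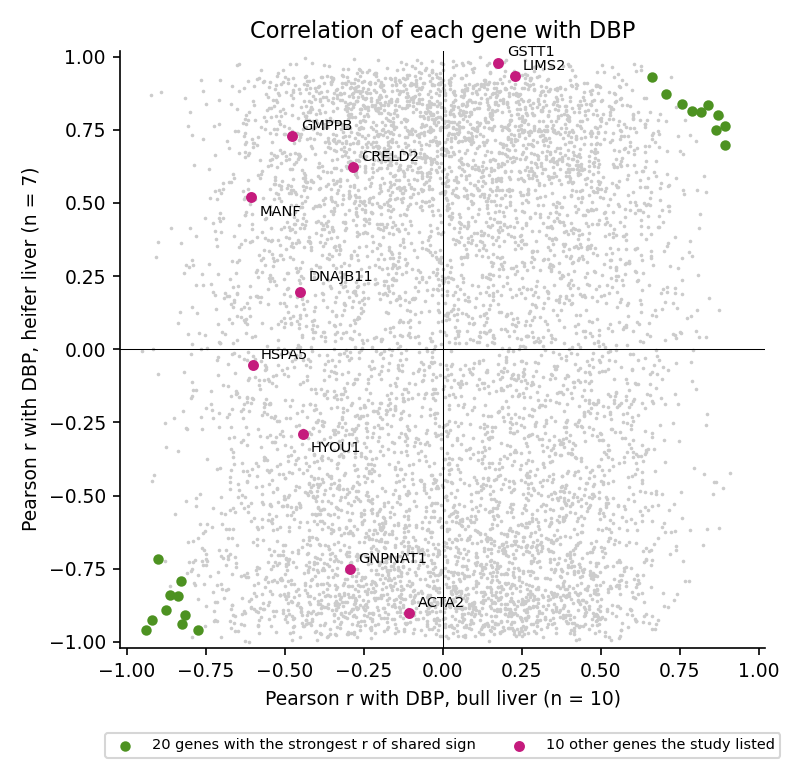
Pearson's r of each of 7044 genes (grey) with *DBP* in bull liver (x axis, n = 10) and heifer liver (y axis, n = 7), group means removed. Green points are the 10 most alike and 10 most opposed genes of shared sign, with r over both sexes of 0.769 or more and −0.817 or less. Magenta points are the other genes listed by the study in bull liver, and the cloud as a whole shows no slope (r of 0.0171 over genes).

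The other 10 genes that the study had listed in bull liver were then set against *DBP*, and they are not an independent choice. None of them passed the adjustment in the 17 livers. *HSPA5* encodes BiP, the main chaperone of the endoplasmic reticulum. Its r with *DBP* was −0.462, its rho −0.515 and the permutation p 0.0344 and 0.0293, with an adjusted p of 0.424 in limma and an r of −0.469 without bull 2703 and heifer 2632. In bulls alone r was −0.601, and in heifers alone −0.0533.

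The other 4 listed genes of the endoplasmic reticulum had r that were negative in bulls and nearer to 0 or positive in heifers, as point values. The r of *HYOU1*, an exchange factor for BiP, was −0.391, with −0.443 in bulls and −0.288 in heifers. *DNAJB11*, a co-chaperone of BiP, had an r of −0.293, with −0.451 in bulls and 0.196 in heifers. *MANF*, a secreted factor of endoplasmic reticulum stress, had an r of −0.298, with −0.606 in bulls and 0.520 in heifers. *CRELD2*, another stress-induced protein of this compartment, had an r of 0.0330, with −0.283 in bulls and 0.622 in heifers. None of these 4 differed in slope on *DBP* between bulls and heifers past an adjusted p < 0.1 in limma.

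Without the removal of group means, all 5 of these genes were negatively correlated with *DBP* over the 17 livers, *HSPA5* with an r of −0.818 and *CRELD2* with −0.598, and 753 genes passed in place of 5. In low RFI bulls, where *DBP* averaged 25.4 CPM, *HSPA5* averaged 659 ± 270.3 CPM (SD, n = 5), against 265 ± 63.0 CPM (SD, n = 5) in high RFI bulls. In heifers it averaged 164 ± 24.4 CPM (SD, n = 3) at low RFI and 264 ± 64.3 CPM (SD, n = 4) at high RFI. The log2 difference of *HSPA5*, low against high RFI, was 1.28 in bulls and −0.59 in heifers, with adjusted p of 0.643 and 0.9996 in limma. For *HSPA5* as for *DBP*, the 2 differences thus had opposite signs. For *DBP* the heifer sign was not stable, at −0.06 without heifer 2632 and −0.05 with all 10 samples as labelled.

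The remaining listed genes were led by *GSTT1*, a glutathione transferase that conjugates small electrophiles. Its r with *DBP* was 0.575, its rho 0.542 and the permutation p 0.0446 and 0.0493, with an adjusted p of 0.344 in limma. Over both sexes without heifer 2632, r was 0.276 (unadjusted p 0.304 in limma). Without bull 2703 and heifer 2632 it was 0.399 (unadjusted p 0.145 in limma). In the 7 heifers r was 0.980, and in the 10 bulls 0.176. Low RFI heifer 2632, highest in *DBP* at 112 CPM, was also highest in *GSTT1* at 39.8 CPM, while L59 and 2660 had 9.30 and 7.46 CPM of *GSTT1*. The high RFI heifers ran from 15.2 CPM of *GSTT1* in 2704 to 30.4 CPM in 2670, the lowest and the highest of their group in CPM of *DBP* as well. On the scaled log2 values used for r, L60 and not 2704 was lowest in *DBP*. In bulls *GSTT1* ran from 14.4 to 23.4 CPM at high RFI and from 6.33 to 13.4 CPM at low RFI.

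The slope of *GSTT1* on *DBP* was lower in bulls than in heifers (difference −1.81, SE 0.346, adjusted p 0.0268 in limma), in a comparison in which 383 of 7044 genes (5.44%) passed. Without heifer 2632 the difference was −1.48 (SE 0.7499) with an adjusted p of 0.653 in limma, and 8 genes (0.114%) passed. The r of *GSTT1* in the other 6 heifers was 0.864.

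*LIMS2*, an adaptor protein of focal adhesions, had an r of 0.541, with 0.228 in bulls and 0.933 in heifers, and 0.220 over both without bull 2703 and heifer 2632. *ACTA2*, the smooth muscle actin that also marks activated stellate cells of the liver, had an r of −0.392, with −0.105 in bulls and −0.902 in heifers, and 0.0533 over both without bull 2703 and heifer 2632. *GNPNAT1*, an enzyme of UDP-N-acetylglucosamine synthesis, had an r of −0.441, with −0.294 in bulls and −0.753 in heifers. *GMPPB*, which makes GDP-mannose, had an r of −0.0756, with −0.476 in bulls and 0.729 in heifers. The 5 genes of the mitochondrial genome that the study listed in heifer muscle (*COX1*, *COX3*, *ND5*, *ND6* and *cytb*) had r from −0.292 to 0.0856 with *DBP* in liver.

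**Figure D5:**
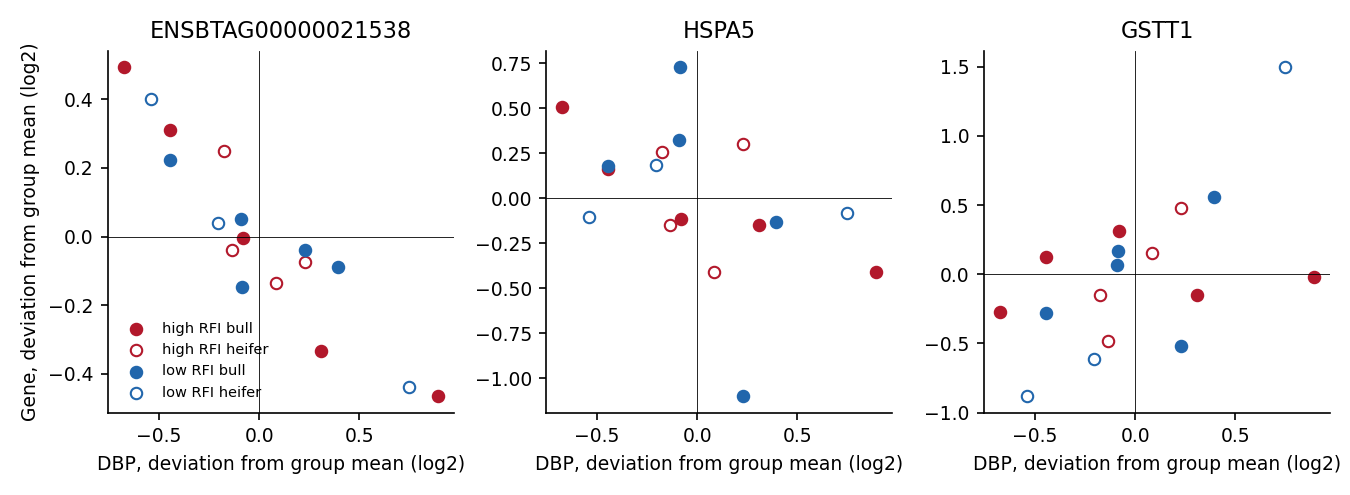
Deviation from the group mean (log2) of ENSBTAG00000021538, *HSPA5* and *GSTT1* (y axes) against that of *DBP* (x axis) in the 17 clean livers, with filled points for bulls, hollow points for heifers, red for high and blue for low RFI. The first gene falls as *DBP* rises in both sexes (r −0.926), *HSPA5* falls less closely (r −0.462), and in *GSTT1* heifer 2632 lies far to the upper right (1.497 on the y axis).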

How the data were processed

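RNA from liver and muscle biopsies was sequenced in 40 samples. The authors used STAR 2.5.1 for alignment to UMD3.1, HTSeq 0.6.1p2 for counting over protein-coding genes and edgeR 3.5 for testing. The deposited values are CPM for a part of the genes, which for *DBP* means that groups are compared on relative levels, and a gene can be missing from a table. The last values of each bull muscle file are those of the liver of bull 2723, and they were dropped.

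TMM scaling (trims of 30% on fold changes and 5% on expression values) was applied, and limma 3.58.1 (R 4.3.3) with a trended variance was run on log2(CPM + 1) for genes over 1 CPM in at least 50% of the samples. A fold change on this scale understates the change of low genes. Adjusted p-values are Benjamini-Hochberg over all genes. Single values were tested by exact two-sided permutation, and correlations of *DBP* with depth and with the genes of the study by 100000 permutations within groups. Python 3.11.15 (scipy 1.17.1, pandas 2.3.3, numpy 2.4.6, matplotlib 3.10.9) served for all else. The scripts were tested on simulated data.

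*DBP*, the gene lists and the samples set apart were chosen with earlier results of these data known. The genes named are *DBP*, the 10 most positively and 10 most negatively correlated with it over 17 clean livers with the same sign in bulls and heifers (at most 2 identifiers printed each way), and the genes of the study's tables. Lists of clock genes, PAR bZIP factors, feeding genes and cell type markers were set, but the deposited identifiers could not be paired with symbols, so only the study's 15 other named genes were followed. Alternatives covered scaling by library size or by median of ratios, other pseudocounts and filters, other sample sets, covariates for depth and tag style, and leaving out each animal. Precision weights, 4-digit tags only, heifers without 2632 and the slopes compared between the sexes were added after the data had been seen.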

Additional observations from a re-analysis of the deposited data

Results flagged for a closer look

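In high RFI heifer liver, the *DBP* value of sample 2728 (24.8 CPM) lay below the other 4. On log2(CPM + 1), without scaling between samples, the gap was 0.753 of the group's range, against a critical value of 0.71 in Dixon's test. The test was made on this log2 scale only, and not on CPM. Sample 2728 is among the samples set apart, with 48.9% of the muscle profile. A total of 8 tests were made, and chance marks about 1 test in 20. High RFI bull muscle and high RFI heifer liver were each tested with and without the samples set apart, so the tests are not independent.

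The log2 change of *DBP* from high to low RFI in bull liver minus that in heifer liver was −1.22, with a permutation p of 0.0158 for *DBP* alone and an adjusted p of 0.959 in limma over all genes. With all 20 livers as labelled it was −0.88, with an unadjusted p of 0.109 in limma. In low RFI bulls every value lay below every low RFI heifer, while the high RFI animals of the sexes overlapped. At low RFI, 394 of 7045 genes (5.59%) did not overlap between the sexes. The low level of *DBP* in low RFI bulls was known when the gene was chosen.

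The slope of *GSTT1* on *DBP* in bull liver minus that in heifer liver was −1.81, with an adjusted p of 0.0268 in limma, and −1.48 with an adjusted p of 0.653 without heifer 2632.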

How the results depend on the processing

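The count test on recovered reads was not run. A check that took the smallest value of a file as 1 read did not find whole reads in most files. That check could not recover the worth of 1 read, as the lowest listed genes held many reads. Of the *DBP* differences, those with all labelled samples changed sign, to −0.0541 in heifer liver and 0.53 in bull muscle, and the bull against heifer difference with all 20 livers fell to −0.54 and no longer passed. The difference between the sexes in RFI change became −0.88 (p 0.109 in limma) with all 20 livers. Leaving out 1 animal gave −1.07 to −0.68 in bull liver, −0.0590 to 0.58 in heifer liver, −0.53 to 0.27 in bull muscle, −1.49 to −0.84 for the difference between the sexes in RFI change and −1.04 to −0.71 for bulls against heifers. Over its alternatives the adjusted p of *DBP* in bull liver was 0.286 to 0.998 in limma. Genes called without 1 animal numbered 0 to 7 in bull liver (7 without bull 2713, 1 without 64 and 1 without 68) and 0 to 2 in heifer liver (2 without L59).

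The count of 5 genes correlated with *DBP* became 753 without removal of group means, 0 in bulls, 893 in heifers, 1 in heifers without 2632, 4054 over all 20 livers, 2 without the 2 extreme animals and 8 with depth as a covariate. Without 1 animal it was 0 to 15, with 0 without bull 2701 or heifer 2632, 15 without bull 2703, 3 without bull 2641, bull 2659 or heifer 2704 and 2 without heifer 2660. The cause was not tested.

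Several r changed sign. In heifers only, *MANF* became 0.520, *DNAJB11* 0.196 and *GMPPB* 0.729. In heifers without 2632, *HSPA5* became 0.209, *HYOU1* 0.289, *MANF* 0.424, *DNAJB11* 0.268, *GMPPB* 0.746 and ENSBTAG00000009047 −0.124. Over all 20 livers, *DNAJB11* became 0.0872, *GMPPB* 0.164, *GNPNAT1* 0.490, ENSBTAG00000009047 −0.545 and ENSBTAG00000005984 0.208. Without the 2 extreme animals, *CRELD2* became −0.116 and *ACTA2* 0.0533. *CRELD2* was also −0.598 without removal of group means and −0.283 in bulls only. Without 1 animal, *CRELD2* ran from −0.152 to 0.188 and *GMPPB* from −0.371 to 0.176. The spread of *DBP* without 1 animal was 0.369 to 0.525 in bulls and 0.203 to 0.4995 in heifers, and 0.738 over all 10 heifers. Depth limits *DBP* most in bull 2713 (73 reads) and heifer L58 (58 reads). High and low RFI groups, and bulls and heifers, share no animals, so these comparisons could not be paired. Between the tissues, only bulls 2641 and 2723 gave clean samples of both with *DBP* listed. Liver against muscle was not tested.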
